A study of Mus musculus with 4 samples.

Results

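Liver tumour tissue from 11-month-old WHV/c-myc transgenic mice was set against the liver of tumour-free transgenic mice at 5 months, a stage described as preneoplastic. The comparison takes 2 of the 4 arrays of the study, 1 for each side, chosen by their labels for genotype and age. Animals of both groups were C57/BL6 mice with the same transgene, a c-myc gene joined to woodchuck hepatitis virus (WHV) sequences, so the transgene did not distinguish them. At 5 months the transgenic livers showed dysplasia of the hepatocytes, graded mild to moderate, and at 11 months the tumours were mainly trabecular hepatocellular carcinomas of well-differentiated type. The remaining arrays, 1 each, held liver of wild-type C57/BL6 mice of 5 and 11 months and gave the same step in age without the transgene. No treatment was recorded for any group. The animals were kept under light and dark cycles with free food and water, and they were killed when the abdomen had broadened.

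Each array stood for 5 mice, and the labels leave unsettled whether their RNA was mixed or their signals were averaged. There are no replicates, so the text holds neither p-values nor standard deviations, and 1 array a group limits the precision. Tumour tissue and the older age go together on the transgenic side and cannot be told apart within that pair. All 14 hepatocyte markers with a named probe set were above the floor on the 4 arrays, and albumin (Alb) read 5205, 5805, 5482 and 5352. Levels here are normalized probe set intensities and are always listed in the order wild-type at 5 months, wild-type at 11 months, preneoplastic transgenic and tumour. Log2 ratios are tumour over preneoplastic unless stated otherwise. An intensity of 28.275, the median of all normalized values, served as the floor. Where 1 of the arrays compared fell below it, only a bound could be given, written "at least", and no ratio was formed where both fell below. The direction of a bound was fixed by which array fell below.

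Myc is a transcription factor that, with its partner Max, binds DNA at E-box sequences and is known for raising ribosome production, nucleotide synthesis and entry into the cell cycle. Hepatocytes of the adult liver divide rarely and carry enzyme sets that differ along the lobule, with pericentral genes under Wnt signalling. Hepatocellular carcinomas are known for losing parts of that programme and for expressing genes of the fetal liver such as Afp and Igf2.

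A ratio could be given for 13016 genes. Of these, 884 were at least 2-fold higher in the tumour (6.79%) and 765 at least 2-fold lower (5.88%), together 12.7%, and the median log2 ratio of all genes was 0.016. Differences of at least 8-fold were found for 41 higher and 33 lower genes. Wild-type liver at 11 over 5 months had 275 higher (2.15%) and 319 lower genes (2.49%) of 12810, together 4.64%, with 1 higher and 0 lower genes at 8-fold. These wild-type counts also moved with the processing, to 117 and 456 as deposited, 1251 and 1223 of 16379 with a 25th percentile floor, and 42 and 71 of 7423 with a 75th percentile floor. With those floors the transgenic pair had 1833 and 1712 of 16390, and 427 and 418 of 7745. The balance of directions depended on the scaling, since the deposited median intensity was 35.8 on the tumour array and 25.2 on the preneoplastic one. As deposited, 2474 genes were higher and 359 lower, so that 87.3% of the calls were higher against 53.6% after quantile normalization, and the log2 ratios centred on a median of 0.43. The hybridisation control probe sets, which read RNA added in fixed amounts, differed by a log2 ratio of -0.04 as deposited and of -0.41 after normalization, and scaling by them gave 2634 higher and 336 lower genes. When each array was shifted to a common median, 48.5% of the calls were higher. Lists are therefore read against the median of all genes.

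**Figure D1:**
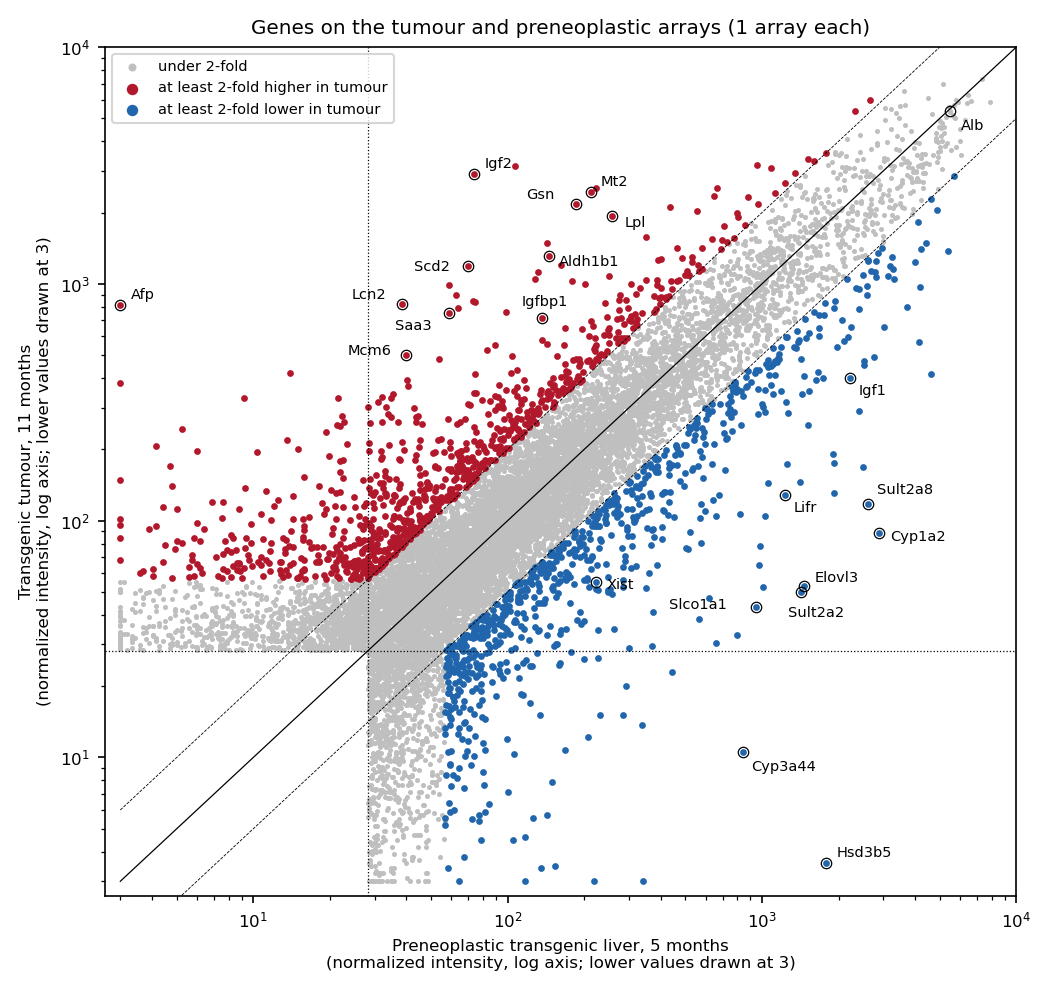
Normalized intensity of each gene on the preneoplastic array (horizontal, log axis) against the tumour array (vertical, log axis), 1 array each, with red and blue points for genes at least 2-fold higher or lower in the tumour, dashed lines at 2-fold and dotted lines at the floor of 28.275. Igf2 and Afp lie far above the diagonal, Cyp1a2, Elovl3 and Hsd3b5 far below it, and Alb on it.

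The fetal growth factor gene Igf2 had the highest ratio among genes measured on both arrays that the naming rule admits. It read 31.9, 40.7, 73.7 and 2903, so that only the tumour array stood far above the floor, and was 39.4-fold higher than in preneoplastic liver (log2 ratio 5.30). A further probe set of Igf2, below the floor in preneoplastic liver, was at least 2.73-fold higher. Afp, the fetal serum protein, read 810 in the tumour and under 5 on each other array, which made it at least 28.6-fold higher. Of 34 oncofetal and liver tumour marker genes with a ratio, 13 were at least 2-fold higher and 1 lower, at a median of 0.72. Lcn2 (lipocalin 2), Scd2 (a desaturase of fetal and brain tissue) and Lgals3 (galectin 3) were 21.5-fold, 16.9-fold and 11.6-fold higher. Scd2 read 50.1, 53.2, 70.0 and 1185, with the tumour array alone high, while Lcn2 read 102, 136, 38.3 and 826 and was thus lower on the preneoplastic array than on both wild-type arrays. The actin-severing protein gene Gsn, with 115, 112, 185 and 2180, and the protease inhibitor gene Serpinb1a, with 36.1, 69.5, 62.5 and 897, followed the pattern of Scd2. Gpc3 and Dlk1, fetal liver genes named after their values were seen, reached only 0.30 and a bound of 0.31. Among 20 imprinted genes, 4 were higher and 2 lower, with a median of 0.15. Meg3 had 1.13, but another probe set of Meg3 measured on both arrays gave -0.16.

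Genes of insulin-like growth factor signalling did not move together. Against Igf2, the adult liver hormone gene Igf1 read 2108, 1976, 2218 and 398 and was 5.57-fold lower (log2 ratio -2.48), low on the tumour array alone, with its 4 probe sets between -2.58 and -1.84. Igfals, the acid-labile subunit that carries IGFs in plasma, was 4.03-fold lower, and the growth hormone receptor gene Ghr, named after its values were seen, had -1.53. Igfbp1, an insulin-repressed binding protein, read 3242, 950, 137 and 714. It was 5.21-fold higher in the tumour than in preneoplastic liver, yet both transgenic arrays lay below the wild-type arrays. Of 23 genes of this axis, 2 were higher and 4 lower, with a median of -0.30. Among 30 growth factor receptors and ligands, 6 were lower and 1 was higher. The receptor of leukaemia inhibitory factor, Lifr, was 9.62-fold lower, with 875, 814, 1232 and 128. The epidermal growth factor receptor gene Egfr was 4.21-fold lower, with 1229, 1834, 1437 and 341, and its 6 probe sets ran from -2.07 to -0.17. Both receptor genes were low on the tumour array alone.

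Cell division genes were higher in the tumour. Of 34 mitosis and spindle genes, 28 were at least 2-fold higher and 0 lower, with a median log2 ratio of 2.06, against 6.79% of all genes that were higher. Of the 34 ratios 16 were bounds, since these genes lay under the floor in preneoplastic liver but not in the tumour. They could only come out higher, so for them the counts are no separate evidence of a direction. A further member, Ndc80, lay under the floor on both transgenic arrays. Ect2, which guides cytokinesis, read 34.9, 20.9, 32.1 and 334, 10.4-fold higher in the tumour. Ube2c and Cdc20, which act on the anaphase-promoting complex, were 10.3-fold and 9.12-fold higher. Only the tumour array stood well above the floor for Ect2 and Ube2c. Top2a, the DNA topoisomerase of dividing cells, was at least 8.89-fold higher. A further probe set of Top2a read only 33.4 and 19.6 on the transgenic arrays, near or below the floor. Of 30 genes for cyclins, their kinases and inhibitors, 10 were higher and 0 lower, and 9 ratios were bounds that could only come out higher. Cdk1, the mitotic kinase, and Ccnb2, a mitotic cyclin, were at least 9.76-fold and at least 9.22-fold higher, and the proliferation marker gene Mki67 was 8.96-fold higher. Cdkn1a, the cyclin-dependent kinase inhibitor p21, read 60.1, 9.15, 43.6 and 260 and was 5.97-fold higher. Ccnd1, the G1 cyclin D1 gene, named after its values were seen, went the other way at -0.66, with 82.2, 95.2, 494 and 312. Both transgenic arrays were above the wild-type arrays, and the preneoplastic one was the highest.

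Of 33 genes of DNA replication and its licensing, 17 were higher and 0 lower, with a median of 1.14 and 7 bounds among the ratios. All 6 genes from Mcm2 to Mcm7 were at least 2-fold higher. These genes encode the helicase that licenses replication origins, and those beyond Mcm5 and Mcm6 were named after their values were seen. Mcm6 read 7.58, 8.55, 40 and 499, so that both transgenic arrays were above the floor and the tumour array was 12.5-fold above the preneoplastic one. Mcm5 was at least 6.31-fold higher, and Mcm7, Mcm4, Mcm2 and Mcm3 had log2 ratios of 2.08, 1.73, 1.29 and 1.14. Rrm2, a subunit of ribonucleotide reductase, and Cdt1, a licensing factor, were 6.32-fold and 5.60-fold higher. E2F factors are known to act on such genes. Promoter windows of 250 bases before and 50 after the gene start, from RefSeq on GRCm38.p6, were found for 28 of the 33 genes. They were searched on both strands for the E2F letters TTTCGCGC, TTTGGCGC and TTTCCCGC, and 13 of the 28 genes (46.4%) held at least 1 match. Matches of these strings can overlap each other. The share was 3.68% among all genes with a ratio and a window, 8.14% among the higher genes and 1.15% among the lower genes. Over all genes with a window it was 2.12%. Mitosis genes held 0 matches in 28 genes. Within the replication list the genes with a match had a median log2 ratio of 0.76 and those without one of 1.27. In 8 of the 13 genes a match lay before the gene start. The stretches of the 3 helicase genes are shown because they had the highest ratios among those 8, with matched letters in capitals.

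Mcm6 (chr1:128359768-128359855, minus strand): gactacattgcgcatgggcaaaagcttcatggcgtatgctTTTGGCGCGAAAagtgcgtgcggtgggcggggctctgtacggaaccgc
Mcm5 (chr8:75109316-75109403, plus strand): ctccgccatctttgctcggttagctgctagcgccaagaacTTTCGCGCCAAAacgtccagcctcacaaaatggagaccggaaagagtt
Mcm7 (chr5:138172001-138172088, minus strand): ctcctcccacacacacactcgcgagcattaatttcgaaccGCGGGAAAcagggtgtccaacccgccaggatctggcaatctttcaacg

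In Mcm6 and Mcm5 neighbouring matches overlapped into 1 run of capitals, which began 110 and 153 bases before the gene start, and the match in Mcm7 began 165 bases before it. Mcm6 held 3 matches before the gene start, and the last lay outside the stretch shown. A match describes letters and is no evidence of binding. E2f1 itself, named after its values were seen, had a log2 ratio of -0.13, with 52.0, 7.5, 52.6 and 48.0. E2f2 and E2f8, also named afterwards, had bounds of 0.96 and 0.83. Of 24 DNA repair and checkpoint genes, 10 were higher and 2 lower, with a median of 0.75 and 9 bounds among the ratios. Chek1, the S-phase checkpoint kinase gene, was at least 5.33-fold higher. Chromatin and DNA methylation genes had a median of 0.71, with 9 of 24 higher and 0 lower, among them Hmgb2 at 2.23, the maintenance methylation factor Uhrf1 at a bound of 1.74 and the Polycomb methyltransferase Ezh2 at 1.48.

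Genes of ribosome production were higher as a broad set of small differences. Of 52 ribosome biogenesis genes, 51 had a log2 ratio above 0, as did 51% of all genes, and 19 were at least 2-fold higher, with a median of 0.93. Nhp2, a protein of the small nucleolar particles that modify ribosomal RNA, read 281, 328, 348 and 1579, 4.53-fold higher. Nolc1 and Nop56, which act in nucleolar assembly and RNA methylation, were 3.96-fold and 3.91-fold higher, with Nolc1 at 39.5, 74.8, 67.8 and 268. In each case the tumour array was the highest. For Nhp2 the other 3 lay close together, while those of Nolc1 spread almost 2-fold. Nucleolin (Ncl) and nucleophosmin (Npm1), named after their values were seen, were at 1.93 and 1.72. All 23 cytosolic ribosomal protein genes were above 0, with 6 at 2-fold and a median of 0.80. Rps19 read 1239, 1248, 1517 and 3366. Ribosomal protein genes have many near-identical copies, so these probe sets may read more than 1 of them. Of 25 mitochondrial ribosome genes, 24 were above 0, with a median of 0.55 and 1 at 2-fold, Mrpl19. Translation factors had a median of 0.61 with 8 of 29 higher, led by Pabpc4 at 1.43 and Eif3e at 1.41.

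The promoter windows of the ribosome biogenesis genes were searched for the E-box CACGTG, which reads the same on both strands. Of the 45 genes with a window, 10 held it (22.2%), against 11.3% of all genes with a ratio, 13.6% of the higher genes, 9.56% of the lower genes and 7.15% of all windows. The 10 genes with the motif had a median log2 ratio of 0.97 and the 35 without it one of 0.94. In 3 of the 10 genes an E-box lay before the gene start, and these stretches are shown with the E-box in capitals. Genes with higher ratios, such as Tsr1 at 1.39, are not shown, as their match lay elsewhere in the window.

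Nop2 (chr6:125131783-125131868, plus strand): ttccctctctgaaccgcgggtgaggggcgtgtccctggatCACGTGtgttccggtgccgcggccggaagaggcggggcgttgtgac
Imp4 (chr1:34439668-34439753, plus strand): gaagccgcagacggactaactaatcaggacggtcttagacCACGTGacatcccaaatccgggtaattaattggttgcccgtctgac
Rrn3 (chr16:13780449-13780529, plus strand): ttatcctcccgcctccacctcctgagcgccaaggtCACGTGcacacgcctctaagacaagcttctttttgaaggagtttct

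These E-boxes began 60, 121 and 215 bases before the start of Nop2 (an RNA methyltransferase), Imp4 (a processome protein) and Rrn3 (an RNA polymerase I factor), whose log2 ratios were 0.97, 0.97 and 0.87, with another probe set of Imp4, below the floor in the tumour, at a bound of -1.01. Rrn3 held 2 E-boxes before the gene start, and the other lay outside the stretch shown. Of 20 nucleotide synthesis genes, 10 were at least 2-fold higher and 0 lower, with a median log2 ratio 0.99 above that of all genes. Ctps, the CTP synthase gene, read 65.2, 46.8, 69.6 and 312, 4.48-fold higher, with the tumour array alone high. Dctpp1, which hydrolyses surplus dCTP, was 4.31-fold higher and Gart, of purine synthesis, 3.08-fold. Splicing and RNA processing genes had a median of 0.49, with 7 of 23 higher. Among them Snrpf, a core protein of the spliceosome, had a bound of 3.06. The proteasome list had 0 of 27 genes at 2-fold and a median of 0.08. Relative to all genes that median was 0.06, and -0.11 when the arrays were shifted to a common median.

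Myc itself was read by 1 probe set at 42.5, 42.1, 16.1 and 27.2, below the floor on both transgenic arrays, and so had no ratio. Its relation to the transgene was not analysed here, so it is no check of the labels. No gene of the Myc network was 2-fold apart among 13 with a ratio, by the probe set used for each gene. The range ran from Mxd3, a Max-binding repressor, at -0.55 to Mga, another Max partner, at 0.67. Mycn had a bound of 0.38 and a further bound of opposite sign, Mycl had 0.35 and Max a bound of 0.14. Mlx had -0.12, but another probe set of Mlx gave -1.08, past 2-fold. The probe sets of Mxd4 ran from -0.59 to 0.59. As deposited, 2 genes of this list were at least 2-fold higher and 0 lower.

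Several enzyme and transporter forms of fetal or other tissues were higher in the tumour and some forms of adult liver lower. Of 11 genes with a ratio on the list of fetal or other-tissue forms, 8 were at least 2-fold higher and 0 lower, with a median of 2.14. On the list of adult liver forms, 3 of 11 were lower and 0 higher, with a median of -0.66. The fetal list also holds Igf2, Afp and Scd2, and the adult list Igf1 and Alb, all given above. Igf2, Afp, Igf1 and Alb are neither enzymes nor transporters, yet they enter these counts and medians. Igf2 and Afp are among the 8 higher genes, and Igf1 is among the 3 lower ones. Pkm, the muscle and fetal pyruvate kinase gene, read 23.2, 29.3, 21.9 and 161, at least 5.70-fold higher, and its liver counterpart Pklr read 246, 231, 361 and 130, 2.77-fold lower. Only the tumour array reached a clear Pkm signal. Pygb, the brain glycogen phosphorylase gene, was 8.31-fold higher with 39.6, 72.7, 33.8 and 281, and the liver form Pygl had -0.35. Slc7a1, a cationic amino acid transporter, was 4.41-fold higher, with another probe set at -0.18, and Slc7a2, the liver form, had -0.76, with probe sets from -1.72 to 0.18. Scd2 at 4.08 stood against Scd1, the liver desaturase, which read 5447, 5399, 5702 and 2845 and only just passed the 2-fold limit on the lower side. Its log2 ratio was -0.74 as deposited, while another probe set of Scd1 read 1641 and 310 on the transgenic arrays, 5.29-fold lower. Aldoa and Slc2a1, an aldolase and a glucose transporter of other tissues, were 2.20-fold and 2.32-fold higher. The hexokinase genes Hk1 and Hk2 had -0.36 and 0.69, and Pfkl, of the adult list, had 0.88. Gys1 and Arg2 were below the floor on both transgenic arrays.

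**Figure D2:**
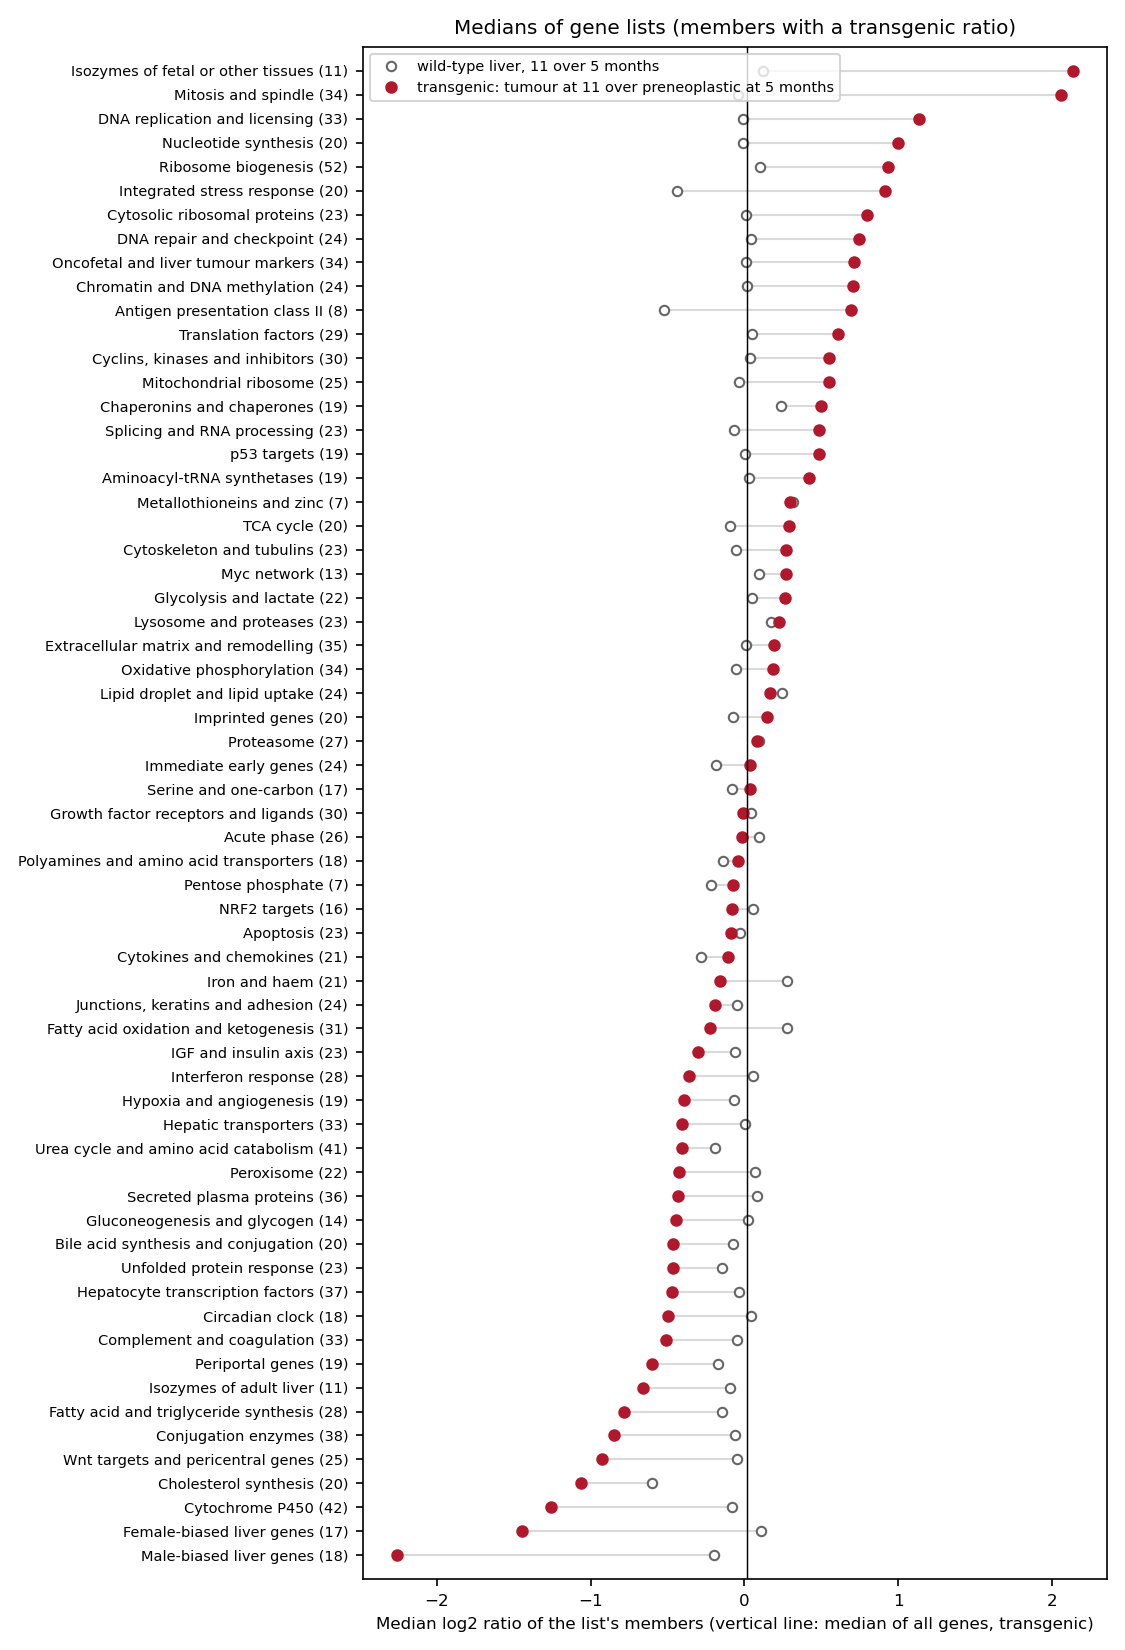
Median log2 ratio of each gene list, as filled points for tumour over preneoplastic transgenic liver and open points for wild-type liver at 11 over 5 months, with the number of members that had a transgenic ratio in brackets and a vertical line at the median of all genes. Mitosis and replication lists stand at 2.06 and 1.14 and the cytochrome P450 list at -1.26 on the transgenic side, while most wild-type medians lie near 0.

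Drug and steroid metabolism was lower in the tumour. Of 42 cytochrome P450 genes, 24 were at least 2-fold lower and Cyp39a1 alone was higher; the median log2 ratio was -1.26, against 5.88% of all genes that were lower. Cyp1a2, a pericentral enzyme of caffeine and arylamine metabolism, read 3206, 1930, 2892 and 88.6, 32.6-fold lower, the lowest ratio of a gene measured on both arrays. Cyp2a12 read 2620, 2437, 2486 and 168 and was 14.8-fold lower. Not every P450 gene followed: Cyp3a11 and Cyp2e1, named after their values were seen, were at -0.17 and -0.60, and Cyp39a1, an oxysterol hydroxylase, was 4.74-fold higher. Of 38 conjugation enzyme genes, 1 was higher and 17 were lower, with a median of -0.85. Some genes in these counts were high on the preneoplastic array rather than low on the tumour array alone. Sult2a2, described below, had the lowest ratio of the conjugation list and was of that kind. Among P450 genes Cyp2b9, with 23.7, 144, 368 and 29.5, was highest on the preneoplastic array. Sult2a8, a sulfotransferase of bile acids, read 2991, 3206, 2620 and 117, 22.4-fold lower, and Ugt3a2, a glycosyltransferase, was 9.69-fold lower. Hepatic transporters had a median of -0.40, with 9 of 33 lower and 1 higher. Slco1a1, an organic anion importer, was 22.1-fold lower with 1686, 1261, 950 and 43.1. Abcb1a, a drug exporter, was 4.87-fold higher. The tumour array alone was low for Cyp1a2, Cyp2a12, Sult2a8 and Slco1a1.

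Pericentral and Wnt target genes had a median of -0.93, with 11 of 25 lower and 0 higher. Oat (ornithine aminotransferase) read 2782, 2787, 1926 and 175 and was 11.0-fold lower. Slc1a2, a glutamate transporter, and Lect2, a secreted Wnt target, were 10.4-fold and 13.1-fold lower, and another probe set of Slc1a2 was at least 2.84-fold lower. Glul (glutamine synthetase), the classical pericentral gene, named after its values were seen, was at -1.87 with 2163, 1696, 2185 and 596. The general Wnt feedback genes Axin2 and Lgr5, also named afterwards, stood at -0.25 and -0.61. Periportal genes had a median of -0.60, with 5 of 19 lower and 3 higher, so both zones of the lobule were represented among the lower genes. Pck1, the gluconeogenic carboxykinase gene, was 3.63-fold lower with 3288, 3697, 1973 and 543. Aldh1b1, a mitochondrial aldehyde dehydrogenase, read 170, 77.0, 145 and 1311 and was 9.06-fold higher, with only the tumour array high.

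Of 37 transcription factor genes of hepatocytes, 8 were lower and 0 higher, with a median of -0.47. Esr1, the oestrogen receptor gene, read 154, 151, 285 and 15.1, at least 10.1-fold lower. The clock-output factor gene Dbp was 6.75-fold lower. Onecut1, a liver-enriched factor, read 85.7, 59.0, 253 and 51.5, so that the preneoplastic array was high and the tumour array close to wild-type. Ahr, which induces Cyp1a2, was 3.13-fold lower, although another probe set gave 0.13. Hnf4a and Cebpa, central hepatocyte factors named after their values were seen, were both at -0.50.

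Among secreted liver proteins, 31 of 33 complement and coagulation genes were below 0, as were 48.9% of all genes, and 11 were at least 2-fold lower with 0 higher, at a median of -0.51. C8a, of the membrane attack complex, read 3867, 2899, 2410 and 290 and was 8.32-fold lower. Mbl1, a mannose-binding lectin, was 7.33-fold lower and F11, clotting factor XI, 3.66-fold. Of 36 other secreted plasma protein genes, 1 was higher and 8 were lower, with a median of -0.43. Hamp (hepcidin), the iron hormone, read 5211, 5677, 5387 and 1382, 3.90-fold lower, and Itih1, an inhibitor chain of plasma, was 4.46-fold lower. The urea cycle and amino acid catabolism list stood at -0.41 with 6 of 41 lower and 0 higher, among them Agxt, a peroxisomal aminotransferase, at -2.85. Hepatocyte markers as a list stood at -0.16 with 0 of 14 at 2-fold.

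**Figure D3:**
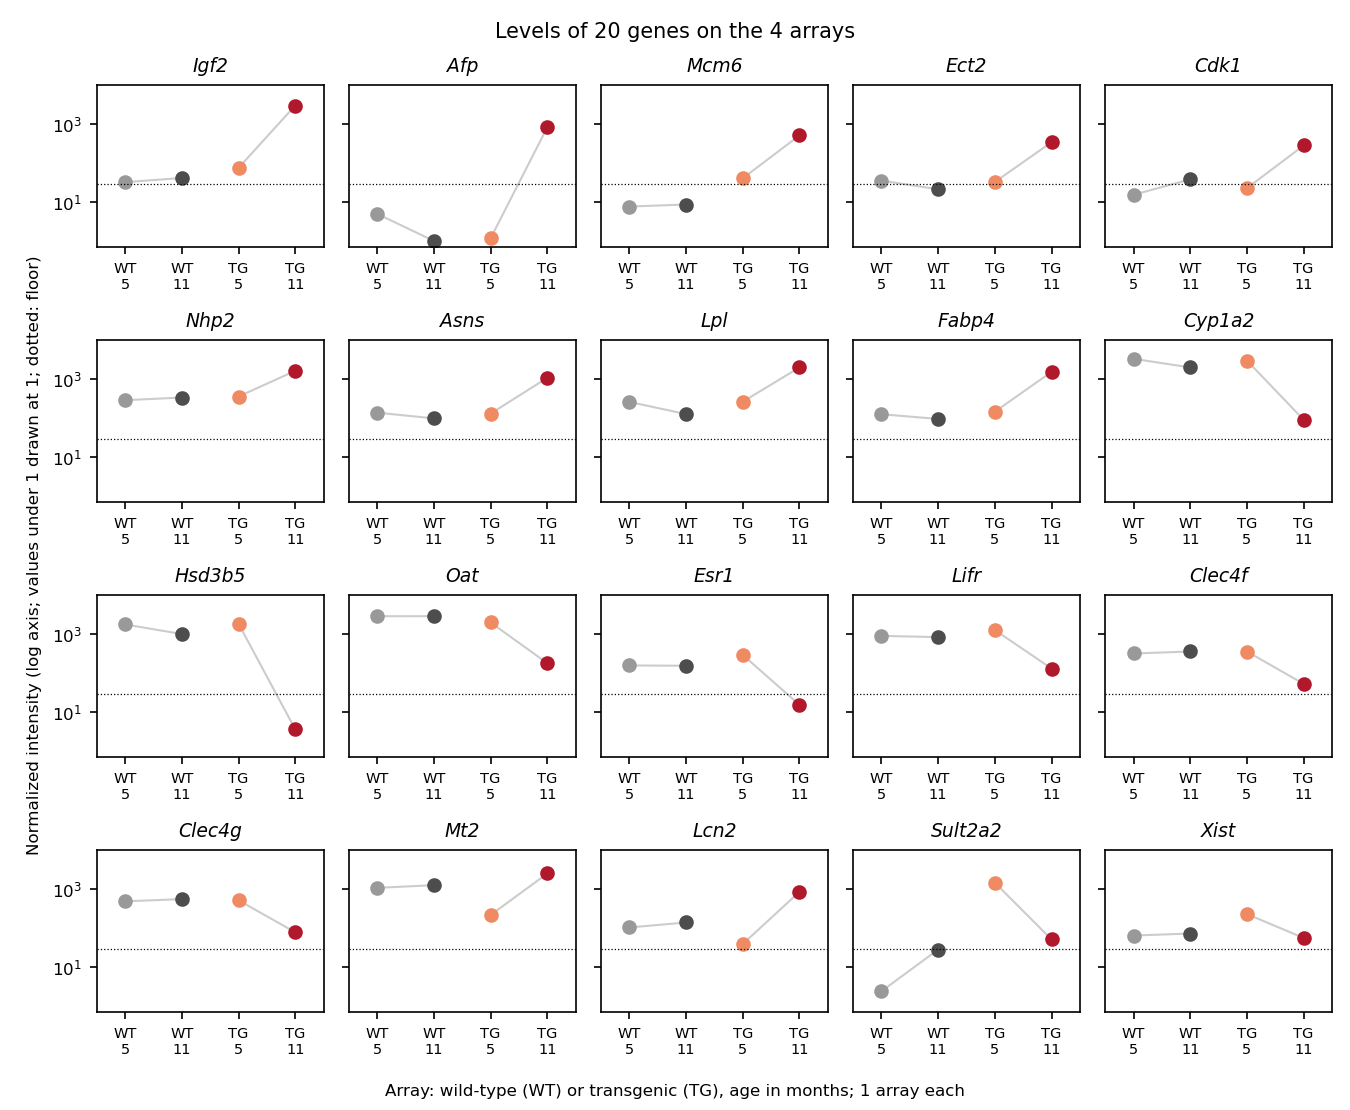
Normalized intensity (log axis) of 20 genes on the wild-type (WT) and transgenic (TG) arrays at 5 and 11 months, 1 array each, with a dotted line at the floor of 28.275 and grey lines joining arrays of a genotype. Igf2, Afp, Mcm6 and Asns are highest in the tumour, Cyp1a2, Hsd3b5, Oat and Clec4f are lowest there, and for Sult2a2, Xist, Mt2 and Lcn2 the preneoplastic array stands apart from both wild-type arrays.

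Lipid synthesis genes were lower in the tumour, while genes of lipid droplets and lipid uptake were split. All 20 cholesterol synthesis genes were below 0 and 12 were at least 2-fold lower, with a median of -1.06. Msmo1, a sterol demethylase, read 1472, 640, 1468 and 410 and was 3.58-fold lower, with both 11-month arrays below the 5-month arrays. In wild-type liver the same list had a median of -0.60, with 6 of 20 genes at least 2-fold lower and 19 of 20 below 0, as were 47.3% of all genes there. Of 28 fatty acid and triglyceride synthesis genes, 12 were lower and 1, Scd2, was higher, with a median of -0.78. Elovl3, a fatty acid elongase that is also a male-biased gene, read 1854, 636, 1466 and 52.8 and was 27.7-fold lower. Acss2 (acetyl-CoA synthetase) was 4.34-fold lower, with 1508, 657, 1529 and 352. In the lipid droplet and uptake list, 12 of 24 genes were above 0 and 12 below, with 5 at least 2-fold higher, 1 lower and a median of 0.17. The wild-type pair had 6 of 25 higher and 2 lower, and the median of the list after subtraction of the wild-type ratio was -0.37. Lpl (lipoprotein lipase) read 254, 124, 256 and 1927 and was 7.52-fold higher. Fabp4, a fatty acid binding protein of adipocytes and macrophages, was 10.5-fold higher with 123, 93.0, 142 and 1487, and Cidec, a lipid droplet protein, had a bound of 1.99. The adipocyte marker list, which holds Fabp4 and Cidec, had 2 of 6 genes higher, and its summed level ran from 5473 to 6744 over the arrays with 5733 in the tumour. Fatty acid oxidation and oxidative phosphorylation stood at -0.22 and 0.18, with 3 of 31 and 0 of 34 genes at 2-fold.

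Genes of the integrated stress response, in which Atf4 raises amino acid synthesis and uptake, were higher: 10 of 20 at 2-fold and 0 lower, with a median of 0.91 against -0.44 in wild-type liver. Asns (asparagine synthetase) read 135, 96.2, 128 and 1048 and was 8.22-fold higher. Psat1, of serine synthesis, was at least 14.8-fold higher, with 419 in the tumour and 11.8 to 20.7 elsewhere. Aldh18a1, of proline synthesis, and Phgdh, the entry enzyme of serine synthesis, were 5.57-fold and 3.87-fold higher. The probe set of Aldh18a1 without multiple matches read 55.3 and 82.2 on the transgenic arrays, which left 0.57. The tumour array alone was high for Asns and Psat1. The wider serine and one-carbon list had 5 of 17 genes higher and 0 lower, with a median of only 0.03. Polyamine and amino acid transporter genes had 4 of 18 higher and 2 lower, with a median of -0.04. Atf4 itself, named after its values were seen, was at 0.19. Genes of the unfolded protein response went the other way, with 21 of 23 below 0, 0 higher, 1 lower and a median of -0.46, and Dnajc3, a co-chaperone of this response, was 2.20-fold lower. Of 19 p53 target genes, 5 were higher and 1 lower, with a median of 0.48. Interferon response genes had 0 of 28 higher and 3 lower, with a median of -0.36. Immediate early genes split, with 3 of 24 higher and 4 lower. The stress-induced factor gene Atf3 had a bound of 2.03, with 102, 43.4, 27.2 and 116, and Dusp6, a phosphatase that dampens ERK signalling, was 3.01-fold lower. The tumour value of Atf3 was near that of young wild-type liver.

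For some genes the preneoplastic array stood apart from the other 3 or from wild-type liver. Metallothionein genes Mt1 and Mt2, which bind zinc and copper, were 11.4-fold and 11.5-fold higher in the tumour. Mt2 read 1047, 1224, 212 and 2437, so that the preneoplastic array was low as well as the tumour array high, and a dim further probe set of Mt1, with 7.85 and 37.2 on the transgenic arrays, was at least 1.31-fold higher. Saa3, an acute phase apolipoprotein, read 120, 210, 59.0 and 753 and was 12.8-fold higher, and Zfas1, a noncoding host transcript of small nucleolar RNAs, read 154, 183, 58.9 and 986. Both were below the wild-type arrays in preneoplastic liver. Of 26 acute phase genes, 7 were higher and 2 lower, with a median of -0.02. Whether the features of the preneoplastic array given next played a part in these ratios was not tested.

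Female-biased liver genes were high on the preneoplastic array. Sult2a2, a female-biased sulfotransferase, read 2.38, 27.7, 1420 and 50.1 and was 28.4-fold lower in the tumour, and Cyp3a44 was at least 29.7-fold lower with 25.9, 12.6, 841 and 10.5. Of 17 genes of this list, 10 were lower and 0 higher, with a median of -1.45. All 17 were above the floor on the preneoplastic array and 11 in the tumour. The other 6 ratios were bounds that could only come out lower, so these counts are no separate evidence of a direction. Xist, the RNA of the inactive X chromosome, read 63.2, 71.0, 223 and 54.9, 4.06-fold lower, and a further probe set was above the floor on the preneoplastic array alone. Y-linked genes were present on every array. Eif2s3y read 331, 288, 292 and 133, and Uty and Kdm5d had ratios of -1.51 and -0.71. Pancreatic acinar genes followed the same array: 11 of 12 markers were above its floor against 4 or 5 on the others, and their summed level was 2131 against 463 to 538. The elastase gene Cela2a was at least 11.9-fold lower in the tumour, with 35.0, 9.40, 337 and 13.7, and 10 of the 12 were lower. Of the 12 ratios 8 were bounds, and a gene below the floor in the tumour alone could only come out lower. The poly-A control probe sets, which read RNA added before labelling, also stood highest there, with a deposited geometric mean of 219 against 82.3 to 110 on the others. Male-biased genes differed by another pattern. Of 18 with a ratio, 14 were lower in the tumour and 0 higher, with a median of -2.26. Hsd3b5, a male-specific steroid dehydrogenase, read 1718, 974, 1791 and 3.58 and was at least 63.3-fold lower, and the tumour array was the low one. All 3 major urinary protein genes with a ratio were lower, led by Mup10 at 14.7-fold. The sexes of the mice were not given in the labels.

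Markers of the liver's other cells were not uniformly lower or higher, and in bulk tissue fewer cells of a type and less RNA per cell cannot be told apart. Of 14 endothelial markers, 6 were lower and 2 higher, with a median of -0.89, and their summed level was 1090 in the tumour against 2142 to 2371 on the other arrays. Clec4g, a lectin of sinusoidal endothelium, read 473, 539, 503 and 76.4, 6.58-fold lower, and Oit3 and Dnase1l3, of the same cells, were below the floor in the tumour. Pecam1 and Cdh5, found on all endothelium, had 1.11 and a bound of 1.60, the former named after its values were seen. Cdh5 read 62.6, 74.3, 15.7 and 85.4, so that it was the preneoplastic array that stood apart. Kupffer cell markers divided in the same way. Clec4f, Vsig4 and Cd163, which mark resident Kupffer cells, were 6.72-fold, 4.28-fold and at least 3.92-fold lower, with Clec4f at 310, 349, 349 and 51.9. Gpnmb, a gene of lipid-laden macrophages, was at least 7.77-fold higher, and the general macrophage gene Cd68 was at 1.02. The summed level of all 17 markers was 3925 in the tumour and 4144 to 4175 elsewhere.

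Stellate cell genes also parted: Lrat, the retinol esterification enzyme of quiescent stellate cells, was at least 4.34-fold lower, and Reln, a secreted glycoprotein gene, was 3.28-fold lower, with a further probe set near or below the floor at 15.7 and 32.8. Col3a1, a fibrillar collagen, had 1.38 with 117, 87.6, 251 and 651, and both transgenic arrays were above the wild-type ones. Another probe set of Col3a1 gave 0.49. Of 14 stellate cell and fibroblast markers, 2 were higher and 5 lower, with a median of 0.13. Dcn was at -1.23, and Dpt and Hand2 had bounds of -1.58 and -1.62. Of 35 extracellular matrix genes, 7 were higher and 2 lower, with Col4a1 at 1.73 and the macrophage elastase gene Mmp12 at least 6.04-fold higher. Neutrophil and monocyte markers had 2 of 8 genes higher, and 6 to 9 of 11 lay above the floor on any array. S100a8 read 225, 68.9, 28.7 and 62.6, so that it was 2.18-fold higher in the tumour than in preneoplastic liver but highest in young wild-type liver. Tff3, of the cholangiocyte and progenitor list, was 9.78-fold higher with 98.5, 56.8, 40.1 and 392, while Prom1 had a bound of -1.45 and Sox9 one of 0.08. Krt19, a defining gene of cholangiocytes, was below the floor on both transgenic arrays. Class II antigen presentation genes, with 7 of 8 above 0 and 0 at 2-fold, had a median of 0.69 against -0.52 in wild-type liver.

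**Figure D4:**
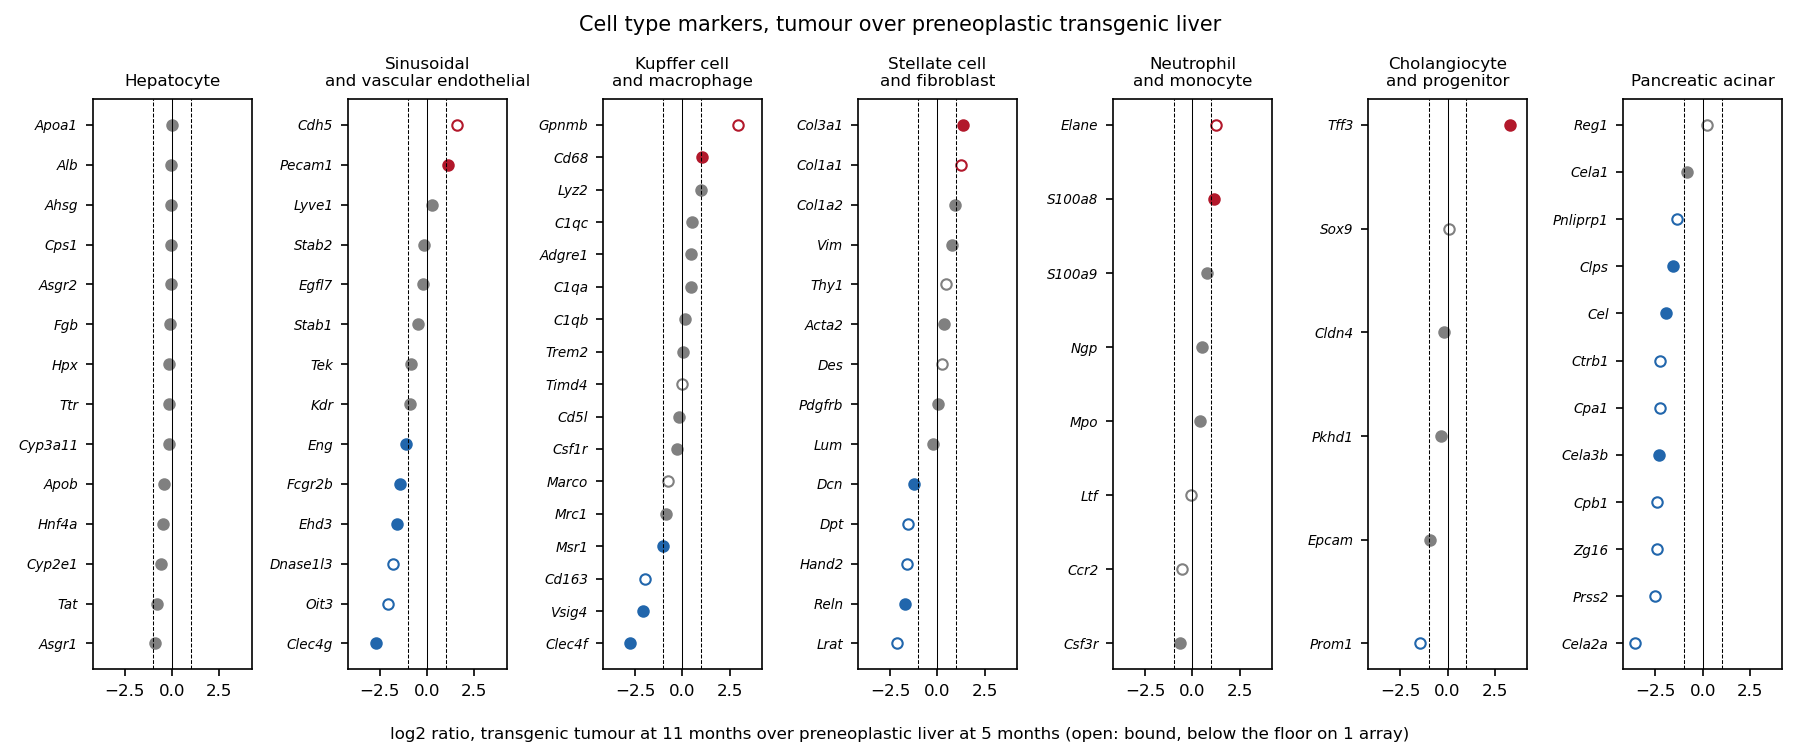
Log2 ratio of tumour over preneoplastic transgenic liver (horizontal) for the members of 7 marker lists, with red and blue points at least 2-fold higher or lower, open points for bounds and dashed lines at 2-fold. Hepatocyte markers lie within 2-fold, while Clec4g, Clec4f and Lrat are lower and Gpnmb and Col3a1 higher.

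The wild-type pair shares no array with the transgenic pair, so it gives a separate view of the 6 months between the ages. Over the 9474 genes above the floor on all 4 arrays the ratios of the pairs had a Pearson r of 0.114 and a Spearman rho of 0.121 across genes, which are not independent replicates. The median absolute log2 ratio was 0.39 for the transgenic and 0.24 for the wild-type pair. Of the 884 genes higher in the tumour, 34 were higher at 11 months in wild-type liver (3.85% of the former and 12.4% of the 275 latter), and 51 genes were lower in both (6.67% and 16%). After subtraction of the wild-type log2 ratio, 1174 genes were at least 2-fold higher (9.02%) and 1006 lower (7.73%), while 49.7% of the differences were above 0 and 50.3% below. Genes below the floor on both wild-type arrays had no wild-type ratio, so nothing was subtracted for them. The mitosis list had 34 transgenic but only 17 wild-type ratios, and the replication list 33 and 23. Among the lists described above, the median after subtraction was as follows: mitosis stood at 2.20, replication at 1.16, ribosome biogenesis at 0.95, nucleotide synthesis at 0.99, pericentral genes at -1.07 and P450 genes at -0.93. Cholesterol synthesis was at -0.49 after subtraction, less than its -1.06 before. Among genes named above, Igf2, Oat, Lifr, Cyp2a12, Igf1 and Clec4f differed by at most 0.35 between the wild-type arrays.

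**Figure D5:**
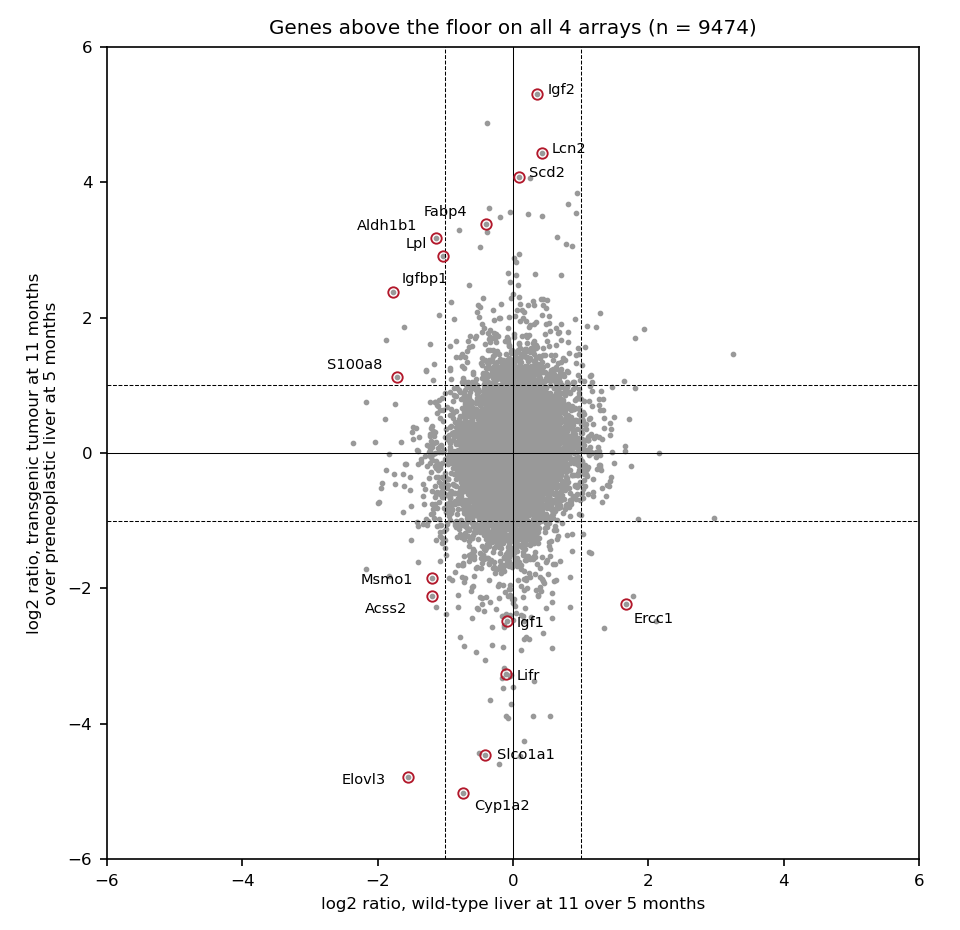
Log2 ratio of wild-type liver at 11 over 5 months (horizontal) against that of transgenic tumour at 11 over preneoplastic liver at 5 months (vertical) for the 9474 genes above the floor on all 4 arrays, with dashed lines at 2-fold. The cloud is taller than wide, Igf2 and Cyp1a2 lie at the upper and lower ends, and Ercc1, Igfbp1, Aldh1b1, Lpl and S100a8 lie past 2-fold in opposite directions.

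The arrays compared also differed in technical readings. The 3' over 5' signal ratio of the actin control probe sets was 1.63 on the preneoplastic and 2.09 on the tumour array, within the wild-type range of 1.90 to 2.32 for the latter and under it for the former, and that of Gapdh was 0.79 and 0.86. The part of these readings in the gene ratios was not tested.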

How the data were processed

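Total RNA was extracted with Trizol and hybridised as biotin-labelled cRNA to Affymetrix Mouse Genome 430 2.0 arrays, per the labels' protocols. The deposited unit is a linear intensity per probe set, judged from the values. The authors' summarisation, background correction and scaling of the intensity values are not given in the sources used.

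The 4 arrays were quantile normalized, values were raised to the floor of 28.275, and log2 ratios were taken with Python 3.11.15, numpy 2.4.6 and pandas 2.3.3. The platform annotation listed 35890 of 45101 probe sets, 34958 with 1 symbol, 932 with several and 9211 unlisted; 34754 were matched to RefSeq. For each of 18194 genes the brightest probe set on average, among those with a single symbol, was used. Calls were made at 2-fold, without tests.

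Named genes are the 10 highest and 10 lowest measured ratios and the 5 highest and 5 lowest bounds whose other probe sets share the sign, up to 4 leading members of each of 79 lists, and all isozyme, Myc network, X and Y genes. Other genes, among them Imp4, Nop2, Rrn3, Tsr1, Krt19, Sox9 and Ndc80, were named after their values were seen. The members and lists were chosen with earlier results of these data known. Alternatives were other scalings (the hybridisation control scaling was chosen after seeing the data), floors, probe set rules and size rules. The steps were tested on simulated data.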

Additional observations from a re-analysis of the deposited data

Results flagged for a closer look

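In 5 named genes the transgenic and the wild-type pair differed by at least 2-fold in opposite directions at 11 over 5 months, each with 1 array a group, and the difference was not tested. Ercc1, a DNA repair nuclease subunit, had log2 ratios of -2.23 in transgenic and 1.67 in wild-type liver, with a further probe set at 0.20. Igfbp1 had 2.38 and -1.77. Aldh1b1 had 3.18 and -1.14, Lpl had 2.91 and -1.03, and S100a8 had 1.13 and -1.71.

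Among control probe sets outside the gene comparison, that for the B1 repeat read 236, 129, 661 and 751 as deposited, 3.18-fold higher in the tumour than on the higher wild-type array. The transferrin receptor control probe sets had deposited geometric means of 12.2, 7.52, 23.2 and 63.8, a ratio of 5.25 for the tumour over the higher wild-type array. The other 3 arrays lay below the floor of 27.9 on the deposited scale, so that ratio rests on signal not above background and is no reliable fold. The B1 repeat was above the wild-type arrays in preneoplastic liver as well.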

How the results depend on the processing

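No paired analysis was possible because each group had 1 array. Leaving out a replicate was not possible either. At least 2-fold higher and lower genes in the tumour numbered 2474 and 359 as deposited, 2634 and 336 with hybridisation control scaling, 1833 and 1712 with a 25th percentile floor, and 427 and 418 with a 75th percentile floor. They numbered 2276 and 2091 at 1.5-fold, 253 and 226 at 3-fold, and averaging the probe sets of a gene gave 559 higher ones. After subtraction of the wild-type ratio the numbers were 3527 and 304, 2784 and 400, 2280 and 2145, 543 and 504, 2503 and 2449, and 355 and 300 in the same order, and averaging gave 740 higher ones. The median shift and the quantile normalization of the transgenic arrays alone gave counts within 1.5 times, the latter for the transgenic pair only. The cause was not tested.

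Of 708 list medians compared relative to all genes, 694 moved little and 14 moved. Medians close to that of all genes changed sign in some settings. Serine and one-carbon genes kept their sign in 5 of 9 settings of scaling, floor and probe sets, and proteasome genes in 6 of 9. The 30 lists at least 0.5 from the median of all genes kept their sign in each setting that gave them a value. The dendritic cell list had none with the 75th percentile floor. The deposited values, the median shift and the hybridisation control scaling differ by a constant factor per array. That factor nearly cancels relative to all genes, so like signs among these settings were almost fixed beforehand. Without that reference, medians as deposited were 2.48 for mitosis, -1.03 for P450 genes and 0.07 for interferon response. As deposited, 42 ribosome biogenesis genes were at least 2-fold higher, and 5 cholesterol synthesis genes lower. The mitosis median relative to all genes was lowest, at 1.07, with the 75th percentile floor. Among named genes, 134 of 228 past 2-fold stayed past it in every setting. Without probe sets of multiple matches Ercc1 turned to 0.20 and Meg3 to -0.16. Averaging its probe sets put Top2a at 0.97, and leaving out probe sets of multiple matches put Aldh18a1 at 0.57 and left Mt1 with only a bound of 0.39. A gene near the floor has little signal over background, so small ratios there carry little weight.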

Other observations

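Other gene groups not described above differed as follows. Clock genes had a median log2 ratio of -0.50, with 5 of 18 lower and 0 higher, among them Bhlhe40 at -1.69 and bounds of -1.31 for Per2 and -1.27 for Cry2, and the hour of sampling was not given in the labels. Junction genes had 4 of 24 lower and 1 higher. The tight junction gene Cldn2 read 398, 363, 519 and 89.4, 5.81-fold lower, and the connexin genes Gjb2 and Gjb1 were 3.93-fold and 2.26-fold lower. Stmn1, a microtubule-destabilising protein of dividing cells, read 124, 213, 132 and 1125, 8.52-fold higher, and Tubb6 was 6.89-fold higher. The log2 ratio of Tubb6 fell from 2.78 to 1.22 with the 25th percentile floor and to 1.36 with the 75th. Haem genes Alas2 and Blvrb were 4.95-fold and 3.66-fold lower. Esm1, a secreted product of endothelial tip cells, was at least 6.38-fold higher, while the hypoxia and angiogenesis list stood at -0.39.

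A pair of genes was chosen after their values were seen. Mtm1, a lipid phosphatase, has 3 probe sets, of which 1 read 64.4, 49.2, 107 and 3140 (29.4-fold higher in the tumour) and another 34.6, 12.9, 60.6 and 1208, while the third read 135, 115, 126 and 87.4, with a log2 ratio of -0.53. Which transcripts these probe sets detect was not analysed here. Fhit, a gene at a fragile site, was read by 1 probe set at 53.5, 14.8, 53.9 and 479, 8.89-fold higher.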
